A study of Mus musculus with 2 samples.

Results

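The genes described here are 10 components of the Wnt/beta-catenin pathway that restrain, raise or carry out its response. They are Axin2, Nkd1, Nkd2, the receptors Lgr4, Lgr5 and Lgr6, the ubiquitin ligases Rnf43 and Znrf3, and the transcription factors Tcf7 and Lef1. They were taken by symbol from the 20433 named genes of a mouse expression array, and they were selected on the measured difference in processed signal between the HES1 and GFP arrays. Their differences are therefore a description, with no test.

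The samples were 2 stable lines of ATDC5, a mouse cell line used as a model of chondrocytes, the cells of cartilage. Lentiviral transduction had made 1 line overexpress GFP, the control, and the other overexpress HES1, a transcriptional repressor known as an effector of Notch signalling. RNA came from each after 3 days as a monolayer in 60 mm dishes, and was read on 1 single-colour array per line, so there were no replicates and no p-value can be given. Neither the promoter that drove the transgene nor whether a line was 1 clone is given in the sources used here.

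In the canonical pathway, Wnt proteins bind Frizzled and LRP5 or LRP6 at the cell surface, the complex that destroys beta-catenin is disabled, and beta-catenin enters the nucleus to switch on genes with TCF/LEF factors. Several of the genes switched on act back on the pathway. AXIN2 rebuilds the destruction complex, NKD proteins bind Dishevelled, and RNF43 and ZNRF3 clear Frizzled receptors from the membrane, whereas R-spondins acting through LGR4, LGR5 or LGR6 remove those ligases and so raise the response. In growing cartilage this pathway is known for its part in chondrocyte maturation.

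Signals are in scanner units scaled so that each array had a 75th percentile of 1057.2; they compare the lines for 1 probe, and say nothing of levels between probes. A probe counted as detected where the scanner software placed it well above background. A gene was called higher or lower at a 2-fold difference of its brightest detected probe, which stands in for a test that the design does not allow. The number of arrays limits the precision, and the scanner's own error on a gene's log2 difference had a median of 0.20. That error is technical and holds nothing of the spread between cultures or lines. A difference given as a multiple of it is therefore no measure of significance. Detected spots made up 54.6% of the GFP array and 56.6% of the HES1 array, and 14273 named genes were detected on at least 1 array. The only mouse Hes1 probe stayed at background on both arrays (10.2 and 10.3), so it checked neither label. Of 12 chondrocyte markers 8 were detected, but Matn1, Matn3, Hapln1 and Cnmd were not, on either array. The 8 had a median log2 difference of -0.33, with none past 2-fold. Their summed signal was 20311 in the GFP line and 12358 in the HES1 line. Most of that sum came from Col2a1 (13796 and 7379), so it mainly follows 1 probe.

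Of the 10 genes, 9 were detected on at least 1 array, 8 of them on both, and Lgr6 on neither. In the HES1 line 4 were at least 2-fold lower (Axin2, Nkd1, Lgr5 and Lgr4) and 0 were higher, while Tcf7, Rnf43, Znrf3, Nkd2 and Lef1 lay within 2-fold. Over all detected genes 4.95% were at least 2-fold lower and 11.1% higher. With genes detected on 1 array set to their bound, the 10 gave 4 lower and 0 higher. Over all detected genes the shares were then 4.47% and 9.49%. Axin2, detected in the GFP line only, could by that rule count only as lower or within 2-fold. With detection on both arrays required, 3 were lower and 0 higher, against 4.41% and 7.04% over all genes so detected. Nothing is read from this contrast, since it chose the genes. The log2 difference, HES1 line minus GFP line, was below 0 for 8 of the 9, with a median of -0.85, against a median of -0.06 and 55.0% below 0 over all detected genes.

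**Figure D1:**
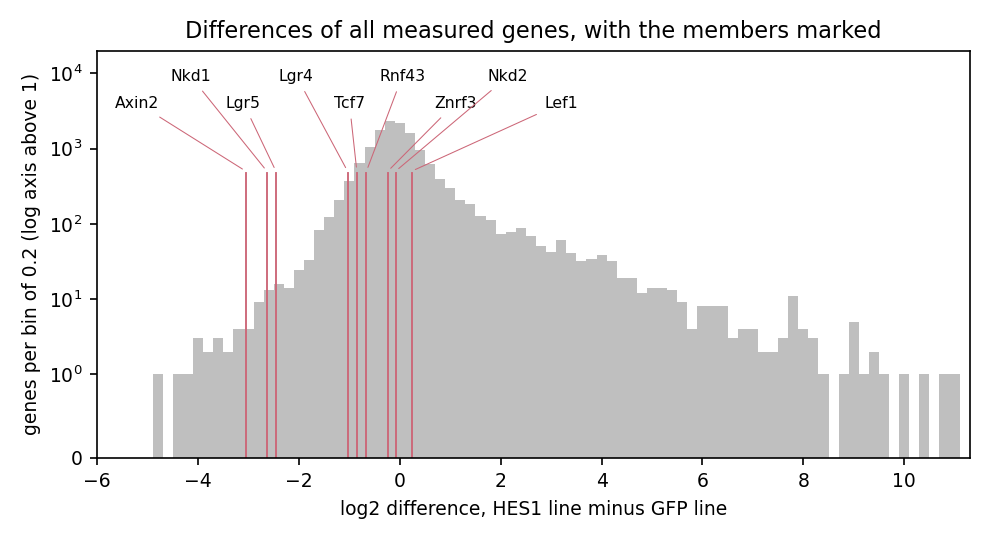
The grey bars count the 14273 detected genes by log2 difference, HES1 line minus GFP line, in bins of 0.2 on a log count axis, and red lines mark the 9 detected genes described here. Nkd1 and Lgr5 lie in the lower tail at -2.63 and -2.46, Lgr4 lies at -1.04, and 5 others lie between -0.85 and 0.23; Axin2 is drawn at its measured -3.05, although its probe was undetected in the HES1 line and its bound is -1.01.

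The 10 genes had 14 probes, 1 for each of 6 genes and 2 for each of 4, and each probe was a single spot per array. Of the probes, 9 were detected on both arrays, 2 on the GFP array only and 3 on neither. The local background around these spots had a median brightness of 35 to 53. It did not by itself set detection, since undetected spots lay above it, such as Lgr6 at 105 over 41 on the HES1 array.

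**Figure D2:**
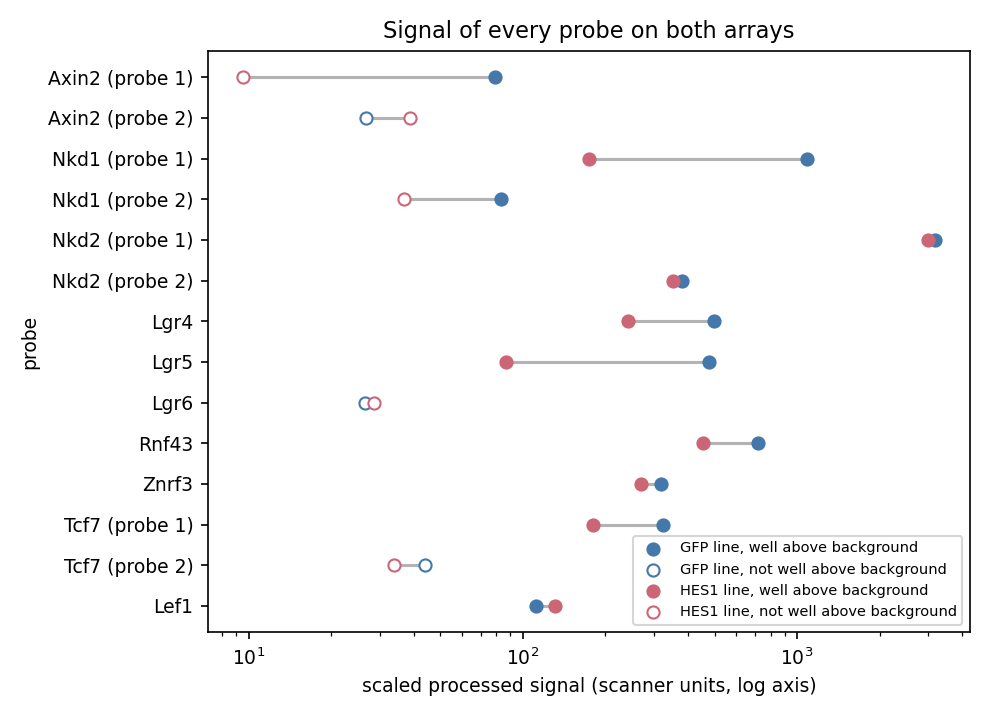
Each row is 1 probe, and its 2 points are the scaled signals on the GFP array (blue) and the HES1 array (red), on a log axis, filled where well above background. The GFP point lies clearly to the right for probe 1 of Axin2, both Nkd1 probes, Lgr4, Lgr5, Rnf43 and probe 1 of Tcf7, and the points nearly coincide for both Nkd2 probes and for Lgr6. The HES1 point lies to the right for probe 2 of Axin2, undetected on both arrays, and slightly so for Lef1.

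Axin2 encodes a scaffold of the destruction complex and is widely used as a readout of beta-catenin activity. Its brighter probe read 78.7 in the GFP line and 9.50 in the HES1 line, where it was not well above background. Set against the lowest detected signal of the HES1 array, the probe was at least 2.02-fold lower. That bound is a rule and not a strict limit. The raw median brightness of that spot was 129 over a local background of 53 on the GFP array, and 89 over 47 on the HES1 array. The measured log2 difference of -3.05 carried a scanner error of 1.47, and only the bound is used here as its size. A second Axin2 probe read 26.8 and 38.6, undetected on both arrays. Axin2 was thus dim on these arrays, and the lower call rests on 1 probe close to the detection limit.

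Nkd1 and Nkd2 encode the paralogous Naked cuticle proteins, which bind Dishevelled and dampen Wnt signalling, and they differed in these lines. Nkd1 read 1085 in the GFP line and 175 in the HES1 line by its brighter probe. That is 6.21-fold lower, a log2 difference of -2.63 that was 12.0 times its scanner error of 0.22. Its second probe read 83.1 and 36.8, was not well above background in the HES1 line, and gave a bound of at least 2.13-fold lower. By these signals both Nkd1 probes were at least 2-fold lower, but the second lay close to the detection limit, with a scanner error of 0.44. Its raw median brightness was 128 over a local background of 43 on the GFP array, and 109 over 45 on the HES1 array. The size for Nkd1 therefore rests on its brighter probe. Of 14273 detected genes, 37 had a lower difference than Nkd1.

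Nkd2 read 3189 in the GFP line and 3005 in the HES1 line, a log2 difference of -0.09 with a scanner error of 0.20. Its second probe read 381 and 353, a difference of -0.11. Both Nkd2 probes were bright on both arrays and differed by less than their scanner error. Over the 2838 genes with exactly 2 probes detected on both arrays, the log2 differences of the probes lay a median of 0.15 apart.

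The promoters of these genes, and that of Lgr4, are shown because Axin2, Nkd1 and Lgr4 were lower while Nkd2 was not. Each window runs from 250 bases before to 50 bases after a RefSeq transcript start on GRCm38.p6, read 5′ to 3′ along the gene's strand. The windows lie at chr11:108920099-108920398, plus strand, for Axin2; chr8:88527383-88527682, plus strand, for Nkd1; chr13:73847582-73847881, minus strand, for Nkd2; and chr2:109917397-109917696, plus strand, for Lgr4. Capitals mark matches on either strand to 1 of 3 motifs: ATCAAAG, the core bound by TCF/LEF factors; CACGNG, the class C site bound by HES1; and CACNAG, the N box bound by HES proteins.
Axin2: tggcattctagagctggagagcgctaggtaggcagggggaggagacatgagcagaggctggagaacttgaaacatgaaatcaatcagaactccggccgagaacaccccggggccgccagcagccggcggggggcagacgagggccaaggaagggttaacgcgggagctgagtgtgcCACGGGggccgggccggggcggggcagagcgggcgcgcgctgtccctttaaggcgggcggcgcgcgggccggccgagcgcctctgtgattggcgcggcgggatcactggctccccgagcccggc
Nkd1: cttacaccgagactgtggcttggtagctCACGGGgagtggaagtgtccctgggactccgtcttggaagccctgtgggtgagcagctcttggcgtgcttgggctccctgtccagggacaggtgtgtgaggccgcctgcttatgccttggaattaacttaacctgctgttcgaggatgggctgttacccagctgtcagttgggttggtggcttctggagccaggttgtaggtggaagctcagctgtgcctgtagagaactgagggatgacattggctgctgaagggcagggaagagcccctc
Nkd2: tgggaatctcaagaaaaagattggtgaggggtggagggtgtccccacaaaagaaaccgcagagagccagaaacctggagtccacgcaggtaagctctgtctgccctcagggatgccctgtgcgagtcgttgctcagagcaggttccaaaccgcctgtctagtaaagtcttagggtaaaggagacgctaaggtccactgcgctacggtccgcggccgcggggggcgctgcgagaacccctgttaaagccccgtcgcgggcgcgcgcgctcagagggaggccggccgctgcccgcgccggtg
Lgr4: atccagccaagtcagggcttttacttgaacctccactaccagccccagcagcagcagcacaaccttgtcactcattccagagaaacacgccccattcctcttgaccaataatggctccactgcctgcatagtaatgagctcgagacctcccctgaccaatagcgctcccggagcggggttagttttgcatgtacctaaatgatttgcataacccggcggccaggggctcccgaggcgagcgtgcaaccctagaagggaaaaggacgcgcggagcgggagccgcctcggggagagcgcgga

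The Axin2 and Nkd1 windows each held 1 class C match, with the letters CACGGG in both, starting 74 bases before the Axin2 start and 222 bases before the Nkd1 start. The Nkd2 and Lgr4 windows held none of the 3 motifs. RefSeq windows were matched for 8 of the 10 genes, 13 windows in all, with none for Lgr5 and Znrf3. A class C match stood in 5 of the 13 (those of Axin2, Nkd1 and Lgr6 and 2 of the 4 Lef1 windows), against 27.5% of all 32851 windows of that length. An N box stood in 2 of the 13 (1 of 2 Rnf43 and 1 of 2 Tcf7 windows), against 42.5% of all windows, and the TCF/LEF core in 0 of 13, against 3.73%. CACGNG and CACNAG can overlap other E-box motifs. Lgr6, which was not detected, and Lef1, which was within 2-fold, thus held class C matches too. A match is a run of letters and not evidence of binding.

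Lgr4, Lgr5 and Lgr6 encode leucine-rich repeat receptors for R-spondins, and LGR5 is also known as a stem cell marker in the gut. Lgr5 read 477 in the GFP line and 86.9 in the HES1 line. It was 5.49-fold lower, a log2 difference of -2.46 that was 9.47 times its scanner error of 0.26, and 47 detected genes had a lower difference. The raw median brightness of the Lgr5 spot was 371 over a local background of 41 on the GFP array. On the HES1 array it was 129.5 over 37. Under another background correction (normexp) the difference was -1.48, so its size depends on that step. Lgr4, the most broadly expressed of the 3 in tissues, read 497 and 242, 2.05-fold lower (log2 difference -1.04, scanner error 0.21). It stood just past the 2-fold limit, by less than its scanner error. Lgr6 read 26.5 and 28.7, undetected on both arrays, so no fold is given. Both detected LGR receptors were therefore lower in the HES1 line, each by 1 probe.

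The ligands of these receptors are the R-spondins. Rspo2 read 147 in the GFP line and 224 in the HES1 line, and Rspo3 read 249 and 312, log2 differences of 0.60 and 0.33 that lay within 2-fold. Rspo1 (24.8 and 46.4) and Rspo4 (10.5 and 10.8) were undetected on both arrays. The measured R-spondins thus had values above 0 where Lgr4 and Lgr5 had values below 0, but neither R-spondin passed 2-fold.

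Rnf43 and Znrf3 encode membrane ubiquitin ligases, the targets that LGR receptors and R-spondins remove. Rnf43 read 718 in the GFP line and 454 in the HES1 line, 1.58-fold lower. Its log2 difference of -0.66 was 3.20 times its scanner error but within 2-fold. Znrf3 read 318 and 270, a difference of -0.24 against a scanner error of 0.21. Neither ligase passed the 2-fold limit.

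Tcf7, which encodes TCF1, and Lef1 are the TCF/LEF factors whose own genes are described targets of beta-catenin. Tcf7 read 324 in the GFP line and 179 in the HES1 line, 1.81-fold lower. Its log2 difference of -0.85 was 3.91 times its scanner error and stood just inside the 2-fold limit. A second Tcf7 probe read 43.7 and 33.7, undetected on both arrays. Lef1 read 112 and 131, a difference of 0.23 against a scanner error of 0.25, and was the only detected gene of the 10 with a value above 0.

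**Figure D3:**
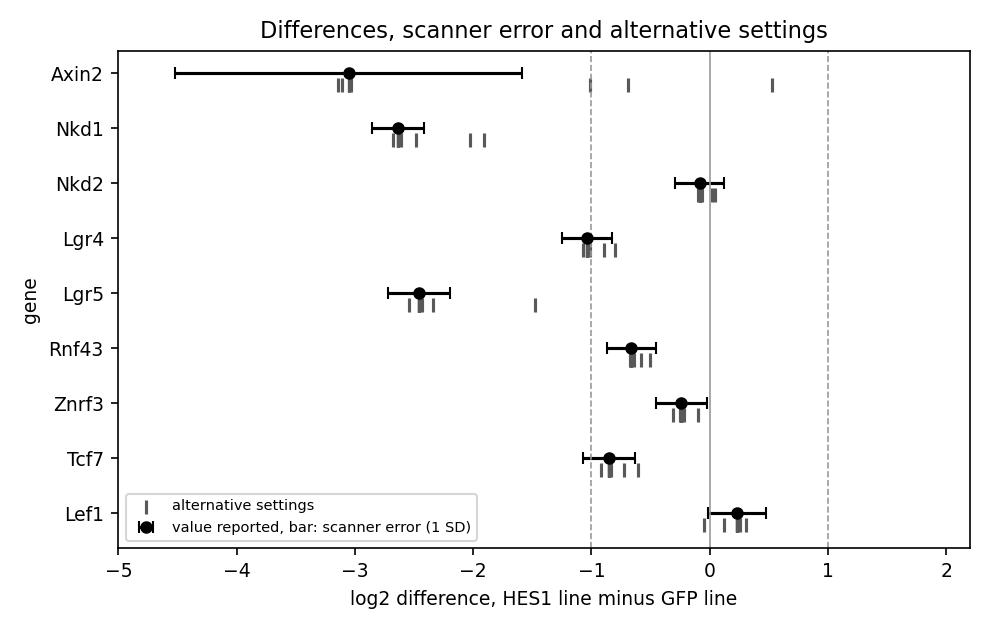
Black points are the log2 differences of the 9 detected genes with bars of 1 scanner error, and grey ticks are the same difference under each alternative processing, with dashed lines at 2-fold. Nkd1 and Lgr5 stay left of the lower dashed line under every alternative run, the Axin2 ticks spread from -3.14 to 0.53, and Nkd2 and Lef1 stay near 0.

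The size of these differences depended on the processing to unequal extents. Nkd1 ranged from -2.68 to -1.91 and Lgr5 from -2.54 to -1.48 over the 10 alternatives, and both were at least 2-fold lower under each. Lgr4 ranged from -1.07 to -0.80 and was at least 2-fold lower in 8 of the 10, the exceptions being loess scaling (-0.89) and normexp (-0.80). Axin2 had a value in 9 alternatives and was at least 2-fold lower in 7; it stood at -0.69 under a normexp background correction and at 0.53 without a filter on dim probes, where its second probe took over. Rnf43, Znrf3 and Tcf7 were below 0 and within 2-fold in all 10. Lgr4, Lgr5, Rnf43, Znrf3, Tcf7 and Lef1 each had 1 detected probe, seen on both arrays. For them only quantile, median and loess scaling and normexp could change the value. The other alternatives returned the main value, or nearly so for the deposited values. The same held for Nkd1 and Nkd2, except that the median over a gene's probes could change their values too. Being lower in all 10 is thus not 10 separate checks. Among the alternatives that could change its value, Lgr4 passed 2-fold with quantile (-1.07) and median scaling (-1.01) only. Lef1 was below 0 in 1 of the 10, the normexp correction (-0.05), and Nkd2 in 8.

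Other genes of the pathway were read from 4 lists by place of action, each set beside the same 4.95% lower and 11.1% higher over all detected genes. The median log2 difference over all detected genes was -0.06, and most of them had values below 0. On the receptor side, 8 of 11 genes were detected, with 0 lower and 0 higher and a median log2 difference of -0.39. Lrp6, the co-receptor of Frizzled, had the largest difference of that list, from 11896 in the GFP line to 6772 in the HES1 line (-0.81, and -0.68 by its second probe). Lrp5, its paralog, had a difference of -0.19. The 8 detected genes of this list, which holds no Frizzled or LGR receptor, thus stayed within 2-fold.

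In the cytoplasm, 20 of 21 genes were detected, with 1 lower, 0 higher and a median of -0.24. The lower one was Dvl1, a Dishevelled gene, at 3019 and 1494 (2.02-fold). Its log2 difference of -1.02 passed the limit by less than its scanner error of 0.20, and 0 cytoplasm genes were lower with median scaling, loess or normexp. Its paralogs Dvl2 and Dvl3 had differences of -0.25 and 0.23. Ctnnb1, which encodes beta-catenin itself, read 22582 and 16121, a difference of -0.49 within 2-fold. Axin1, the constitutive counterpart of Axin2, had a difference of -0.29. The other 19 detected cytoplasm genes thus lay within 2-fold.

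In the nucleus, all 17 genes were detected, with 1 lower, 0 higher and a median of -0.42. The lower one was Tle4, a Groucho corepressor, which was not well above background in the HES1 line (51.7 and 25.5) and at least 1.33-fold lower, so that 0 were lower by bounds. Tcf7l2, a TCF factor, had 3 probes detected on both arrays that gave different sizes. The brightest read 1355 in the GFP line and 881 in the HES1 line, a log2 difference of -0.62, while the others read 1009 and 486 (-1.05) and 428 and 178 (-1.27). All 3 probes were below 0, but the choice of probe decides whether Tcf7l2 counts as 2-fold lower. The same held for 3 Groucho-family genes with probes detected on both arrays. The brightest Tle1 probe gave -0.26 and the others -1.19 and -0.82, the Tle2 probes gave -0.79 and -1.05, and the Tle5 probes -0.47 and -1.02. Of the 17 genes, 15 had values below 0, the side on which most of all detected genes also lay.

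Other described targets of beta-catenin lay on both sides of 0. Of 32 listed, 31 had a usable probe and 25 were detected, with 1 lower, 5 higher (4 by bounds) and a median of 0.23; 9 had values below 0 and 16 above. Wif1, a secreted Wnt inhibitor, was the lower one at 1680 in the GFP line and 665 in the HES1 line (2.53-fold). Fosl1, an AP-1 factor, was higher at 645 and 6185 (9.59-fold), and Jun, its partner, at 5467 and 18626 (3.41-fold). Nrcam, a neural adhesion molecule, was undetected in the GFP line and at least 19.8-fold higher. Lbh, a transcription cofactor, was 2.02-fold higher, and Edn1, the peptide endothelin 1, was at least 1.73-fold higher. Many of these genes also answer to other signals, and their part in Wnt signalling here was not tested.

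**Figure D4:**
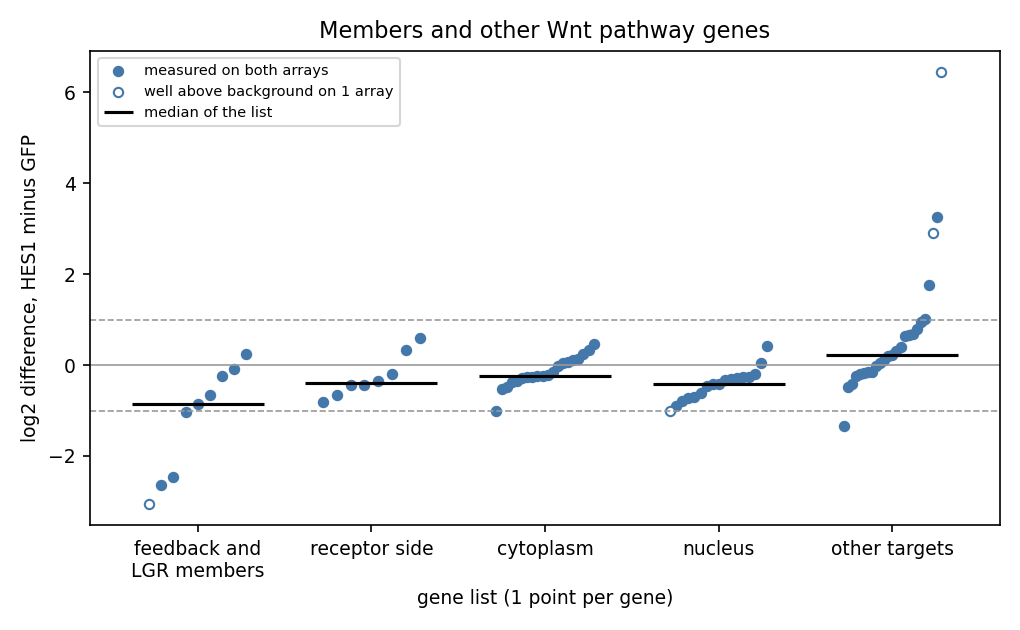
Each point is 1 detected gene, placed by list and by its log2 difference, HES1 line minus GFP line; open points were well above background on 1 array, black bars are list medians and dashed lines mark 2-fold. The medians are -0.85 for the feedback and LGR genes, -0.39, -0.24 and -0.42 for the receptor, cytoplasm and nucleus lists, and 0.23 for the other targets.

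Markers of other cell types were read beside these genes. Of 6 osteoblast markers 5 were detected and all 5 had values below 0, with Ibsp, Sp7 and Phex at least 2-fold lower and a median of -1.07. Over all detected genes 4.95% were at least 2-fold lower, the median was -0.06 and most lay below 0. The summed signal of the 5 markers was 16073 in the GFP line and 8409 in the HES1 line, mostly from Alpl (12365 and 6940). Dmp1 was undetected on both arrays. Muscle markers were detected for 0 of 5 genes. Among markers with a usable probe, which Cd68 and Adipoq lacked, 2 of 5 macrophage, 2 of 4 endothelial, 2 of 4 adipocyte and 1 of 4 epithelial genes were detected. By brightest probes Krt18 alone passed 2-fold (higher, at least 1.63-fold by its bound). The endothelial receptor gene Kdr read 8354 and 8691 by its brightest probe, a difference of 0.06. Its second probe was undetected in the GFP line and at least 12.6-fold higher in the HES1 line (10.8 and 480), so its probes disagreed. Ptprc was detected in the HES1 line only, while Adgre1, Lyz2, Tyrobp, Cdh5, Tek, Plin1, Cidec, Epcam, Cdh1 and Krt8 were undetected on both arrays. The part of the osteoblast markers in the lower Nkd1, Lgr5, Lgr4 and Axin2 values was not tested. In bulk RNA, fewer cells of a type and less RNA per cell cannot be told apart.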

How the data were processed

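Per the labels' protocols, Cy3-labelled cRNA was prepared from 0.1 µg of total RNA per sample. Per the file headers, both arrays were 1-colour Agilent mouse arrays annotated on mm9, on 1 slide, read with Agilent Feature Extraction 10.10.1.1, a version also in the submitters' processing notes. The deposited scanner files hold an intensity per spot, background-corrected per the file headers, and 0 or 1 flags. The deposited value table is that intensity times 1 factor per array (1.45 for GFP, 1.53 for HES1; checked to within 0.0049% for values over 1000), with medians of 67.7 and 76.6; its scale and direction are thus known and nothing was centred.

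Here log2 of the processed signal was taken after scaling on each array's 75th percentile over 59305 non-control spots. Spots with an outlier flag on either array were left out (1053), spots of a probe were averaged, and 0 were saturated. RefSeq accessions, named through a GRCm38.p6 table, gave 1 symbol to 26869 of 54948 probes; 28079 had none and 0 several. A gene's brightest probe well above background on at least 1 array represented it. For a bound, the dim side was raised to its array's lowest detected signal where it fell short of it (38.1 for GFP, 39.0 for HES1). Some undetected spots read above that signal, such as the second Tcf7 probe at 43.7 on the GFP array. Folds given as at least a value are therefore set by this rule and are not strict limits. The calling step was tried on simulated data with changes well past 2-fold in bright genes of 1 probe, with the same detection on both arrays. That trial did not cover changes near 2-fold, changes of dim probes, detection on 1 array or bounds. No test was run, with 1 array per group.

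The genes, lists and motifs were chosen with earlier results of these data known. Named genes were the 10, Hes1, each list's genes past 2-fold or its single largest, Ctnnb1, Axin1, Lrp6 and Tcf7l2. Rspo1 to Rspo4, Lrp5, Dvl2, Dvl3, Tle1, Tle2, Tle5 and the markers were named after their values were seen. Alternatives were quantile, median and loess (span 0.3) scaling, the deposited values, limma 3.58.1 normexp (offset 50) on median spot signals, other probe and dimness rules, outlier spots kept, bounds, and thresholds of 1.5-fold and 3-fold. With 2 arrays no gene could be named for a like pattern. Protein sequences were not used here.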

Additional observations from a re-analysis of the deposited data

How the results depend on the processing

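Of 170 alternative values for counts and medians of the lists, 151 stayed within 1.5 times the main count or within the median scanner error of the main median, and 19 moved. Scanner error served only as a tolerance here. It does not measure the spread between cultures or lines, which is unknown without replicates. Many of the 170 could hardly move. The feedback and LGR, cytoplasm and nucleus genes called higher were 0 under every setting, and the deposited values are the same intensities rescaled. The 151 is therefore not a measure of stability. With the normexp correction, 2 of the 9 detected feedback and LGR genes were at least 2-fold lower instead of 4, and their median was -0.61. The count was 3 with loess, with detection on both arrays required and with dim probes let in. With dim probes let in the median was -0.45, and Axin2 turned to 0.53 because its other probe represented it. The count of cytoplasm genes lower became 0 with scaling on the median, with loess, with normexp and at 3-fold. For the nucleus list it became 0 with normexp, with bounds, at 3-fold and with detection on both arrays required, 2 with the median over probes and 6 at 1.5-fold. The other targets higher were 3 with normexp, 3 with detection on both arrays and 10 at 1.5-fold, and those lower were 0 at 3-fold. On the receptor side, 2 were lower and 1 higher at 1.5-fold. Over all genes normexp, which adds an offset that shrinks differences of dim probes by its construction, called 358 lower and 806 higher against 707 and 1582, and 920 were higher with detection on both arrays. The loess fit moved the median of all genes from -0.06 to 0.08, so each difference under it is read against that shift. No paired analysis was possible because each group held 1 sample, and no sample could be left out for the same reason. Signal over background limits Axin2, Lgr6 and the second Tcf7 probe most.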
